A study of Mus musculus with 12 samples.

Results

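The transcripts described here are those of microRNA genes: the short hairpin stretches that the annotation lists as genes of their own, and the longer transcripts named as their hosts. They were chosen by symbol, as every gene named Mir and a number, Mirlet7, or Mir with the ending hg, that reached 3 CPM (counts scaled to the library total) in at least 3 of 12 libraries. Of 1190 symbols of this form, 64 passed, 59 hairpins and 5 host transcripts (Mir22hg, Mir142hg, Mir124a-1hg, Mir17hg and Mir9-3hg), among 14033 genes tested in all. Of the entries counted as hairpins by symbol, Mir5117, Mir1949 and Mir3096 carry the gene type snoRNA (small nucleolar RNA) in the annotation, not miRNA. Mir6236 and Mir6240 were left out by the rule. The other 1124 did not pass, and 545 of them had no count in any library. Just inside the filter lay Mir3113, Mir27b and Mir16-2, with a third-highest library at 3.26, 3.27 and 3.27 CPM, and just outside lay Mir186, Mir431 and Mir434, at 2.997, 2.93 and 2.83 CPM.

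MicroRNAs are made from long primary transcripts that fold into hairpins. In the nucleus the Microprocessor, a complex of the nuclease DROSHA and the RNA-binding protein DGCR8, cuts the hairpin out. DICER then trims it in the cytoplasm to the mature strand, which an Argonaute protein carries to messenger RNAs that pair with its seed. Many hairpins lie in clusters and are cut from a shared primary transcript, and many lie in introns of protein-coding genes. In mouse embryonic stem cells (ESCs) the clusters miR-290 and miR-302 are known for a shared seed that promotes rapid cell cycling, and let-7 is known as a family that accompanies differentiation.

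ESCs of a pair of genotypes were compared to ask what happens to these transcripts when the Microprocessor lacks DGCR8: wild type (WT) and a line without Dgcr8 (Dgcr8 KO), both in medium with serum, LIF and 2i. All groups received 4-thiouridine (4sU), a uridine analogue that enters RNA as it is made, for 30 min at 500 uM before extraction, and the RNA was divided. Captured 4sU RNA gave the nascent libraries (WT 4sU, Dgcr8 KO 4sU) and RNA depleted of ribosomal RNA gave the steady-state libraries (WT total, Dgcr8 KO total), with 3 replicates in each of the 4 groups. A single Dgcr8 KO line is named in the methods of the study, and nothing says that the replicates were separate cultures, so p-values measure the spread between these samples, which may be technical. Total counts ranged from 4593914 to 6005526 in 4sU and from 6873708 to 9295245 in total libraries, and 1 count was worth 0.16 to 0.208 CPM in the former and 0.112 to 0.155 CPM in the latter. Dgcr8 itself fell in total RNA, with 101, 111 and 92.01 CPM in WT and 33.5, 33.9 and 31.9 CPM in Dgcr8 KO, a log2 change of -1.60 (limma, SE 0.08 and adjusted p = 6.63e-17). All 8 pluripotency markers, Pou5f1, Sox2, Nanog, Zfp42, Esrrb, Klf4, Tfcp2l1 and Sall4, passed the filter, and their summed level spanned 4812 to 5017 CPM in total libraries with no call between genotypes. In 4sU libraries the sum spanned 5783 to 5942 CPM in WT and 6487 to 7125 CPM in Dgcr8 KO, again with no call.

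A count of a hairpin is the number of 50-base reads that touched its stretch of the primary transcript, whose length ran from 58 to 141 bases with a median of 82. It is not a count of mature microRNA. Reads that touched 2 genes on the same strand were assigned to neither, which can leave a hairpin inside an annotated exon without counts: of 176 that did not pass and lie in an exon of another gene, 137 had none. Mir3064, which overlaps an exon of Ddx5 in the annotation of the counts, passed nevertheless, with 8.16, 15.4 and 9.91 CPM in WT and 13.7, 10.1 and 8.33 CPM in Dgcr8 KO in 4sU libraries. Mir17, Mir18, Mir19a, Mir20a, Mir19b-1 and Mir92-1, all inside an exon of Mir17hg, were at 0 in every library, as were Mir22 in Mir22hg and Mir124a-1 in Mir124a-1hg. Under that rule a count of 0 says nothing of their level, and reads on them do not add to their hosts. Levels below are CPM scaled also by TMM factors (edgeR), and a gene was called as risen or fallen at a Benjamini-Hochberg adjusted p under 0.05 over all tested genes and an absolute log2 change over 1 (limma).

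The mature strands that these hairpins encode fall into families by their seed, bases 2 to 8, which decides most of the pairing with targets. RefSeq (GRCm38.p6) gave mature sequences for 55 of the 59 hairpins, 97 in all, and 10 seeds were shared by 2 or more hairpins. These families are shown because the results below follow clusters that hold several of them, with the seed in capitals and each strand read 5′ to 3′. The first is the ESC family. Its core AAGUGC also starts at base 2 of miR-290a-3p and miR-291b-3p, which differ at base 8, and at base 1 of miR-302c-3p. For Mir302a and Mir292 no 3p strand was given. Strands that share the whole seed are 3 of the miR-290 cluster and 2 of the miR-302 cluster.
miR-291a-3p: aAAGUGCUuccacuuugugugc
miR-294-3p: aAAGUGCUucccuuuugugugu
miR-295-3p: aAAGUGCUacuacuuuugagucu
miR-302b-3p: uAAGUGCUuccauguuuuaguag
miR-302d-3p: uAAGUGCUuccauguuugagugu
The miR-17 family carries the same 6 letters AAGUGC shifted by 1 base, starting at base 3 instead of base 2, and comes here from the clusters of Mir25 and Mir363.
miR-93-5p: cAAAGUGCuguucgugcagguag
miR-106b-5p: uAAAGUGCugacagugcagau
miR-20b-5p: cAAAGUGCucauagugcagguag
The miR-25/92 family is spread over 3 clusters, those of Mir25, Mir302b and Mir363.
miR-25-3p: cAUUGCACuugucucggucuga
miR-92a-3p: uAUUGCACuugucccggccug
miR-363-3p: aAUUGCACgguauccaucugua
miR-367-3p: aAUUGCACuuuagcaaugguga
The miR-15/16 family comes from 2 clusters, and Mir16-1 and Mir16-2 encode the same strand.
miR-15a-5p: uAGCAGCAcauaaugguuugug
miR-15b-5p: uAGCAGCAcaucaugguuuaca
miR-16-5p: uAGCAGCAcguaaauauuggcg
The let-7 family comes from the cluster of Mirlet7a-1 and from the single hairpin Mirlet7g.
let-7a-5p: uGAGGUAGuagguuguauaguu
let-7f-5p: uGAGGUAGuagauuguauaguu
let-7g-5p: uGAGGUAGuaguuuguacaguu

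Of the hairpins that passed, 21 of 33 in clusters were called higher in total RNA of Dgcr8 KO, and 22 of 26 single hairpins were not called there. In these bulk libraries, fewer cells with a transcript and less of it per cell cannot be told apart. In total RNA 24 rose and 4 fell, where 9.33% and 7.82% of all tested genes did so. In nascent RNA 24 rose and 5 fell, against 9.5% and 5.27% of all genes. The quasi-likelihood test of edgeR gave 23 and 3 in total RNA and 23 and 6 in nascent RNA. A hairpin was placed in a cluster when another that passed lay within 10 kb on its strand. The 33 lie in 10 clusters, and hairpins of one cluster can share a primary transcript, so they are not independent. Of the 21 called higher in total RNA, 7 are of the miR-290 cluster and 5 of the cluster of Mir363. None of those 33 fell in total RNA, while 1 of 26 single hairpins rose and 3 fell. In nascent RNA 20 of the 33 rose and 1 fell, and 4 of the 26 rose and 3 fell. The median log2 change in total RNA was 1.72 in clusters and -0.16 in single hairpins, beside -0.09 over all tested genes. By the plain order of the libraries, 27 of the 64 lay higher and 4 lower in every Dgcr8 KO than in any WT total library, where 29.2% and 39.6% of all genes did. In 4sU libraries 30 lay higher and 12 lower, where 29.6% and 29.4% of all genes did.

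These counts partly follow from the filter. Of the 64, 19 reached 3 libraries only with the help of Dgcr8 KO libraries, and 18 of these were called higher in nascent RNA, while 7 passed on WT libraries alone and 4 of these were called lower there. The 19 were Mir433, Mir127, Mir24-1, Mir16-1, Mir6392, Mir7655, Mir130a, Mir302b, Mir302c, Mir302a, Mir302d, Mir367, Mir106b, Mir182, Mir96, Mirlet7g, Mir92-2, Mir19b-2 and Mir20b, and their higher values in Dgcr8 KO are a condition of their place here, not a result. The 7 were Mir432, Mir1949, Mir296, Mir15b, Mir16-2, Mir9-3hg and Mir1967, whose higher values in WT are likewise not independent of the filter. The 30 that passed within each genotype did not owe their place to one of them. Of these 30, 13 rose and 2 fell in total RNA, and 6 rose and 1 fell in nascent RNA. Among the 30, 14 were in clusters, of which 11 rose and none fell in total RNA and 6 rose and none fell in nascent RNA. A further 13 were single hairpins, of which none rose and 2 fell in total RNA and none rose and 1 fell in nascent RNA. For 48 of the 64 the 4sU libraries alone met the filter, and the total libraries did not.

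**Figure D1:**
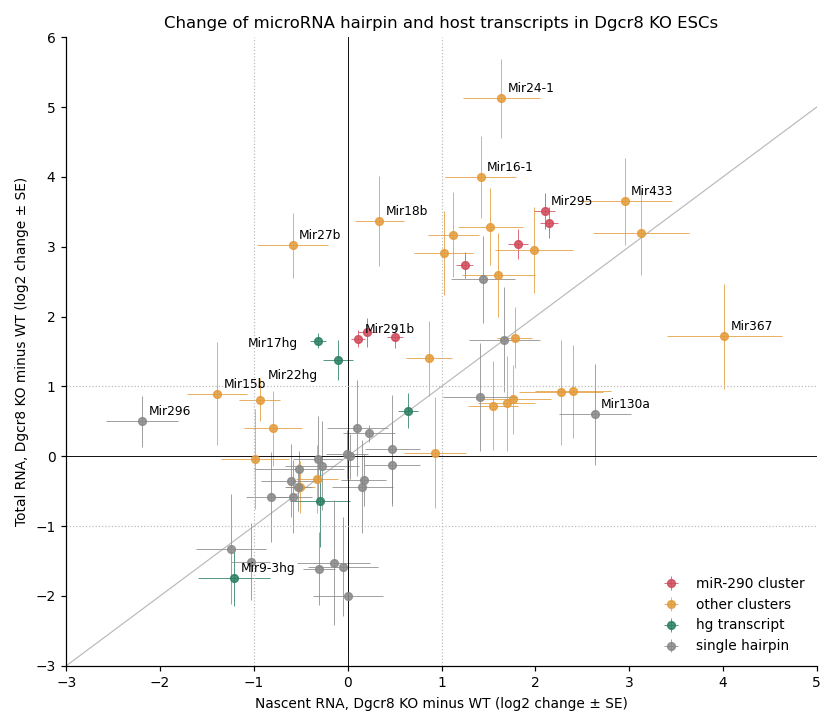
Log2 change (Dgcr8 KO minus WT, limma, error bars SE) in nascent RNA on the x axis and in total RNA on the y axis for the 64 transcripts. Dotted lines mark a change of 1 in either direction and the grey line equal change: the 7 hairpins of the miR-290 cluster lie above that line, from 1.68 to 3.51 in total RNA.

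The miR-290 cluster (chr7:3218626-3220841, mm10, plus strand, intergenic) had the highest summed CPM of the clusters and all 7 of its hairpins rose in total RNA. It is the dominant microRNA locus of undifferentiated ESCs. Summed over the 7 hairpins, total RNA gave 55.1, 57.6 and 48.9 CPM in WT and 278.4, 263.6 and 285.9 CPM in Dgcr8 KO, a ratio of the means of 5.12. In nascent RNA the sums were 539.4, 684.4 and 589.9 CPM in WT against 1263, 1190.0 and 990.3 CPM in Dgcr8 KO, a ratio of 1.90. Both sets of libraries were apart between genotypes in every replicate.

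The rise in total RNA was not even along the cluster. Mir295, the last hairpin, gave 3.26, 3.52 and 3.47 CPM in WT and 39.3, 37.6 and 43.1 CPM in Dgcr8 KO, a log2 change of 3.51 (limma, SE 0.26 and adjusted p = 2.94e-13). Mir291a had 4.97, 3.52 and 3.005 CPM in WT and 38.2, 37.4 and 37.05 CPM in Dgcr8 KO, a log2 change of 3.34 (limma, SE 0.22 and adjusted p = 2.07e-14). Mir294 had 5.13, 5.58 and 3.70 CPM in WT and 41.7, 34.7 and 40.5 CPM in Dgcr8 KO and rose by 3.04 (limma, SE 0.22 and adjusted p = 9.21e-14) on the log2 scale. All Dgcr8 KO libraries of these 3 hairpins lay above 34 CPM while no WT library passed 6 CPM. Mir290a, the first hairpin, had 6.21, 7.52 and 6.24 CPM in WT and 41.8, 43.1 and 49.97 CPM in Dgcr8 KO and rose by 2.73 (limma, SE 0.19 and adjusted p = 3.57e-14). Smaller changes were measured in the middle of the cluster. Mir292 had 11.03, 9.83 and 9.71 CPM in WT and 34.9, 31.8 and 33.03 CPM in Dgcr8 KO, with a log2 change of 1.71 (limma, SE 0.16 and adjusted p = 4.3e-11). For Mir291b the values were 18.2, 22.1 and 17.8 CPM in WT and 63.9, 60.3 and 62.2 CPM in Dgcr8 KO, with 1.68 (limma, SE 0.12 and adjusted p = 1.65e-13). For Mir293 they were 6.37, 5.58 and 4.97 CPM in WT and 18.6, 18.7 and 20.1 CPM in Dgcr8 KO, with 1.77 (limma, SE 0.21 and adjusted p = 1.09e-08). None of the 7 overlapped between genotypes.

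In nascent RNA the same cluster split into 4 hairpins that rose and 3 that were not called. Mir291a had 36.5, 35.6 and 45.5 CPM in WT and 191, 183 and 149 CPM in Dgcr8 KO, a log2 change of 2.14 (limma, SE 0.10 and adjusted p = 3.97e-18). Mir295 had 31.2, 49.1 and 35.8 CPM in WT and 185, 164 and 136 CPM in Dgcr8 KO and rose by 2.10 (limma, SE 0.11 and adjusted p = 2.06e-16). Mir294 had 36.5, 50.8 and 43.01 CPM in WT and 153, 169.7 and 129.7 CPM in Dgcr8 KO and rose by 1.81 (limma, SE 0.10 and adjusted p = 9.8e-16). The first hairpin, Mir290a, rose less, by 1.25 (limma, SE 0.09 and adjusted p = 1.75e-13), with 68.8, 93.8 and 80.7 CPM in WT and 211, 195 and 166 CPM in Dgcr8 KO. In contrast, Mir291b, the most abundant of the 7, overlapped between genotypes, with 222, 262 and 206 CPM in WT and 266, 260.2 and 216 CPM in Dgcr8 KO and a log2 change of 0.11 (limma, SE 0.07 and adjusted p = 0.197). Mir293 likewise overlapped between genotypes, with 58.9, 77.4 and 80.9 CPM in WT and 98.8, 77.8 and 72.9 CPM in Dgcr8 KO and 0.21 (limma, SE 0.10 and adjusted p = 0.0714). Mir292 did not overlap, with 85.8, 116 and 98.4 CPM in WT and 159, 141 and 122 CPM in Dgcr8 KO, but its log2 change of 0.50 (limma, SE 0.09 and adjusted p = 9.36e-06) was under the limit of 1.

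**Figure D2:**
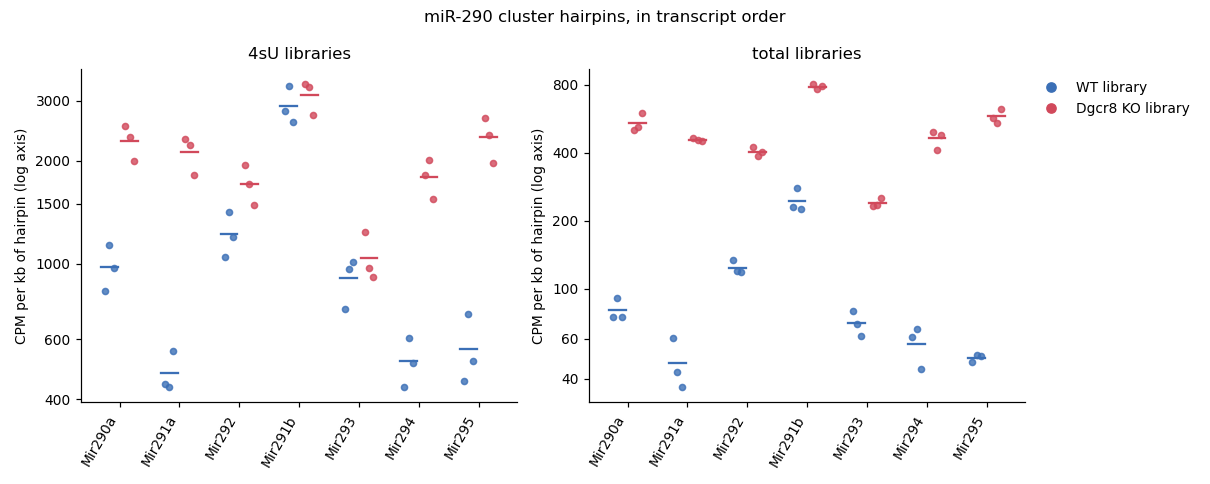
CPM per kb of hairpin (log axis) for the 7 hairpins of the miR-290 cluster in the order of the transcript, 4sU libraries on the left and total libraries on the right. Points are the 3 libraries of a group and bars their means: in 4sU libraries Mir291b and Mir293 overlap between genotypes and the other 5 do not.

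Levels along the cluster were therefore more even in Dgcr8 KO. Per kb of hairpin, nascent RNA of Mir291b averaged 2907 CPM in WT and 3130 CPM in Dgcr8 KO, whereas that of Mir291a averaged 478 and 2121 CPM. The highest hairpin stood 6.46, 7.63 and 5.09 times above the lowest in the 3 WT 4sU libraries, and 2.73, 3.39 and 2.99 times in the 3 Dgcr8 KO 4sU libraries. Total libraries gave 4.87, 6.51 and 6.15 times in WT and 3.47, 3.26 and 3.13 times in Dgcr8 KO. As a share of the reads of the cluster, Mir291b held 38.1% ± 3.13 in WT 4sU and 21.6% ± 0.432 in Dgcr8 KO 4sU libraries (SD, n = 3). Mir295 held 6.34% ± 0.736 and 14.1% ± 0.508. These shares are descriptions and were not tested.

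The genotype effect on the miR-290 cluster was larger in total than in nascent RNA for every hairpin. The interaction of genotype and library type, written here as the change of the total to 4sU ratio, was called for all 7 and ran from 1.20 for Mir291a to 1.57 for Mir291b on the log2 scale, with Mir290a at 1.48, Mir292 at 1.21, Mir293 at 1.56, Mir294 at 1.22 and Mir295 at 1.42 (limma adjusted p from 1.62e-09 to 0.000643). Only 1.76% of all tested genes were called for this ratio. Without WT replicate 3, Mir291a fell under the limit (log2 change 0.92, adjusted p = 0.0202). For a hairpin inside a longer transcript this ratio need not be the stability of that transcript.

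**Figure D3:**
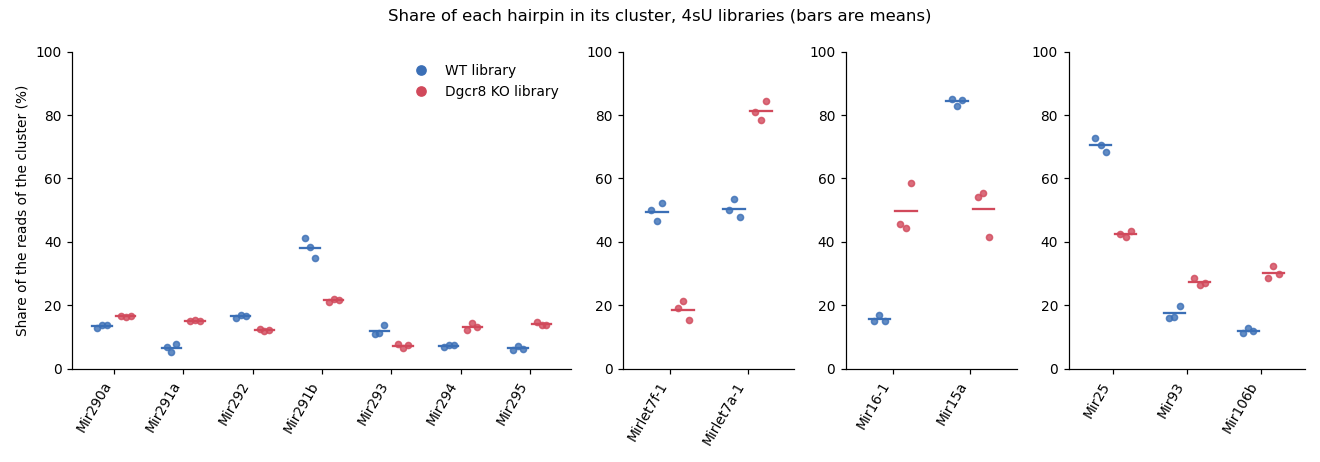
Share of the reads of a cluster (%) that fell on each hairpin in 4sU libraries, for the clusters of Mir290a, Mirlet7f-1, Mir16-1 and Mir25. Points are libraries and bars the means of 3: Mirlet7a-1 held 50.4% ± 2.79 in WT and 81.4% ± 3.04 in Dgcr8 KO (SD).

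The miR-302 cluster (chr3:127545228-127545807, mm10, plus strand, intergenic), which shares the ESC seed but is best known from primed pluripotent cells, was called mostly in nascent RNA. Of its 5 hairpins, 4 rose in nascent RNA and none was called for the total to 4sU ratio. All 5 passed the filter through the Dgcr8 KO 4sU libraries alone, so their higher nascent values were a condition of being listed. Mir367 had 0, 1.04 and 0.354 CPM in WT and 5.97, 4.93 and 5.49 CPM in Dgcr8 KO, a log2 change of 4.01 (limma, SE 0.61 and adjusted p = 1.51e-06). Mir302c had 0.8, 0.624 and 1.42 CPM in WT and 4.38, 5.31 and 5.87 CPM in Dgcr8 KO and rose by 2.40 (limma, SE 0.40 and adjusted p = 7.18e-06). Mir302d had 0.96, 1.04 and 0.531 CPM in WT and 4.57, 4.93 and 3.41 CPM in Dgcr8 KO and rose by 2.27 (limma, SE 0.45 and adjusted p = 6.72e-05). For each of these the lowest Dgcr8 KO library was above the highest WT library. Mir302a rose by 1.70 (limma, SE 0.30 and adjusted p = 1.69e-05), with 1.92, 3.33 and 2.12 CPM in WT and 6.36, 6.83 and 10.6 CPM in Dgcr8 KO. Mir302b, the first of the 5, had 1.60, 3.75 and 3.19 CPM in WT and 5.97, 4.17 and 5.11 CPM in Dgcr8 KO, and its change of 0.93 (limma, SE 0.33 and adjusted p = 0.0169) was under the limit of 1, which it passed without WT replicate 2 (1.15), WT replicate 3 (1.08) or Dgcr8 KO replicate 2 (1.07).

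Steady-state RNA of the miR-302 cluster stayed near the floor of the assay in both genotypes. Read counts in total libraries were 2, 1 and 2 in WT and 2, 4 and 4 in Dgcr8 KO for Mir302a. They were 0, 5 and 2 in WT and 3, 1 and 1 in Dgcr8 KO for Mir302b and 2, 1 and 1 in WT and 5, 4 and 1 in Dgcr8 KO for Mir302c. Mir302d had 1 count over the WT and 4 over the Dgcr8 KO total libraries, a ratio of scaled counts of 3.95 (95% exact counting interval 0.391 to 195). Mir367 alone was called, with counts of 0, 1 and 1 in WT and 2, 2 and 7 in Dgcr8 KO, a ratio of scaled counts of 5.43 (95% exact counting interval 1.19 to 50.5) and limma adjusted p = 0.0466. That call rests on few reads: it was lost without Dgcr8 KO replicate 3 (adjusted p = 0.25), WT replicate 1 (adjusted p = 0.126), WT replicate 3 (adjusted p = 0.0563) or Dgcr8 KO replicate 2 (adjusted p = 0.0504). Summed over the 5 hairpins, the ratio of Dgcr8 KO to WT was 3.70 in nascent and 2.09 in total RNA.

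The miR-106a-363 cluster (chrX:52741693-52742413, mm10, minus strand, intergenic) is a paralogue of the miR-17-92 cluster, and all 5 of its hairpins tested here rose in total RNA. Counts in total libraries were 2, 1 and 1 in WT and 28, 10 and 13 in Dgcr8 KO for Mir363, a log2 change of 3.17 (limma, SE 0.60 and adjusted p = 2.95e-05). Mir18b had 2, 0 and 3 in WT and 28, 11 and 14 in Dgcr8 KO and changed by 3.37 (limma, SE 0.65 and adjusted p = 3.28e-05). Mir20b had 0, 3 and 1 in WT and 14, 7 and 10 in Dgcr8 KO and changed by 2.91 (limma, SE 0.60 and adjusted p = 9.19e-05). The WT libraries held at most 3 reads each, and every Dgcr8 KO library at least 7. Mir92-2 and Mir19b-2 each summed to 3 in WT against 36 in Dgcr8 KO total libraries, a ratio of scaled counts of 11.9 (95% exact counting interval 3.75 to 60.2), with limma adjusted p = 5.17e-06 for Mir92-2 and 2.95e-05 for Mir19b-2.

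Nascent RNA of this cluster differed from hairpin to hairpin. Of its hairpins, Mir19b-2, Mir92-2 and Mir20b met the filter only with Dgcr8 KO libraries, which favoured their higher nascent values there. Mir19b-2 had 0.32, 0.624 and 0.531 CPM in WT and 4.57, 4.75 and 4.92 CPM in Dgcr8 KO, a log2 change of 3.13 (limma, SE 0.51 and adjusted p = 5.03e-06). Mir92-2 had 1.44, 1.46 and 1.59 CPM in WT and 3.78, 5.31 and 4.36 CPM in Dgcr8 KO and rose by 1.52 (limma, SE 0.35 and adjusted p = 0.000424). Mir363 had 4.16, 3.54 and 3.19 CPM in WT and 5.97, 10.2 and 8.33 CPM in Dgcr8 KO and rose by 1.13 (limma, SE 0.27 and adjusted p = 0.000746), which fell to 0.95 without Dgcr8 KO replicate 2. Those 3 did not overlap between genotypes. Mir20b, with 1.76, 2.91 and 3.36 CPM in WT and 5.97, 4.75 and 5.11 CPM in Dgcr8 KO, passed by little at 1.02 (limma, SE 0.31 and adjusted p = 0.00583). It missed the limit in edgeR (log2 change 0.99) and without WT replicate 1 (0.72) or Dgcr8 KO replicate 1 (0.93). Mir18b overlapped, with 5.92, 5.41 and 5.66 CPM in WT and 9.15, 4.93 and 8.33 CPM in Dgcr8 KO and 0.34 (limma, SE 0.26 and adjusted p = 0.276). Mir18b was also the hairpin with the largest change of the total to 4sU ratio in the cluster, 3.03 (limma, SE 0.70 and adjusted p = 0.00228). Mir363 was called for that ratio too, at 2.05 (limma, SE 0.66 and adjusted p = 0.0309), but not without WT replicate 2 (adjusted p = 0.117), WT replicate 3 (adjusted p = 0.0975) or Dgcr8 KO replicate 1 (adjusted p = 0.155).

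**Figure D4:**
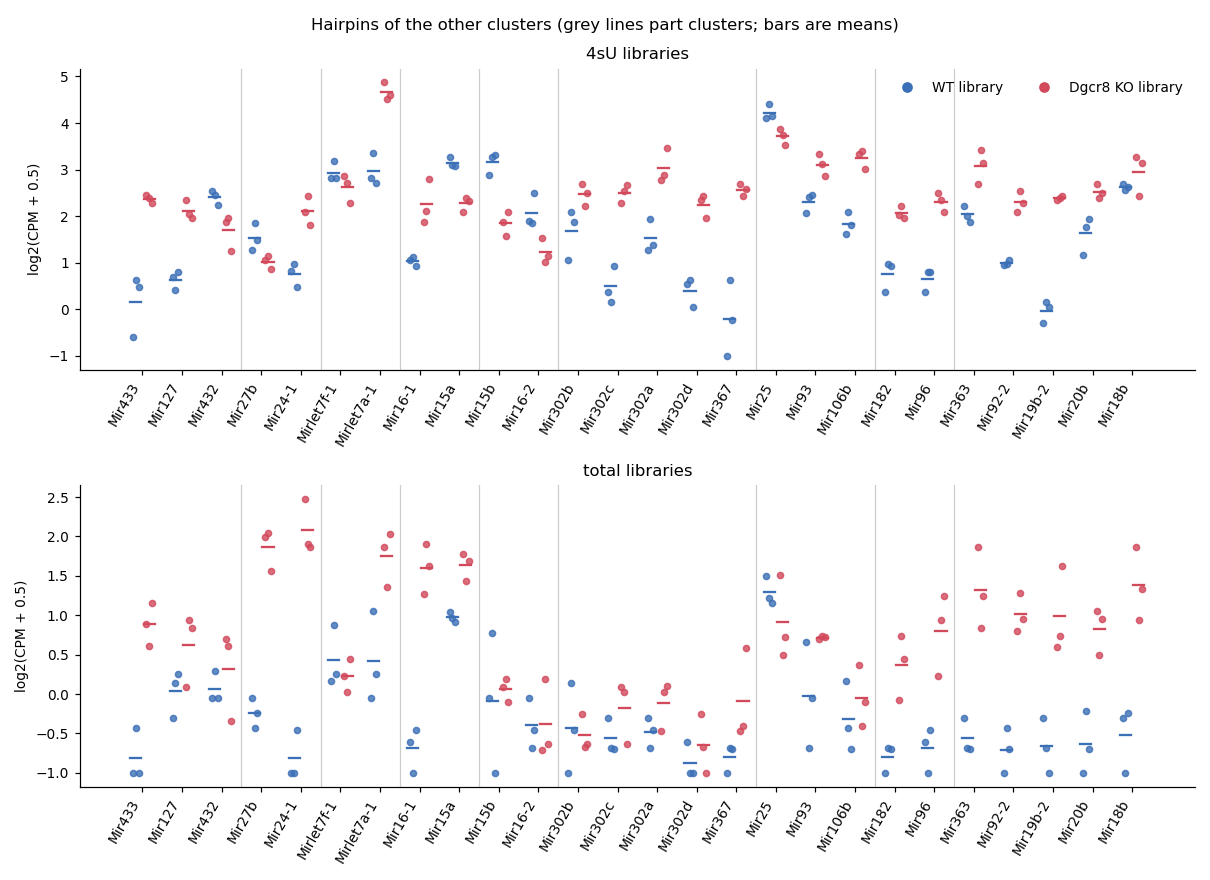
Levels as log2(CPM + 0.5) of the 26 hairpins in the other 9 clusters, 4sU libraries above and total libraries below, with a point for each library and a bar for the mean of 3. A value of -1 stands for no read: in total libraries the WT points of Mir24-1, Mir16-1, Mir182 and Mir96 lie near that floor and the Dgcr8 KO points above them.

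Mir24-1 and Mir27b form a cluster (chr13:63300712-63301275, mm10, plus strand) within an intron of 2010111I01Rik, and both rose in steady-state RNA. Counts of Mir24-1 in total libraries were 0, 0 and 2 in WT and 45, 25 and 22 in Dgcr8 KO, a ratio of scaled counts of 45.5 (95% exact counting interval 12.2 to 381) with limma adjusted p = 2.04e-09. Mir27b had total counts of 3, 2 and 3 in WT and 31, 28 and 17 in Dgcr8 KO, a log2 change of 3.02 (limma, SE 0.46 and adjusted p = 1.02e-06). In nascent RNA the pair parted. The filter was met by Mir24-1 only with Dgcr8 KO libraries, which favoured its higher values in Dgcr8 KO. Mir24-1 rose by 1.64 (limma, SE 0.41 and adjusted p = 0.00108), with 1.28, 1.46 and 0.885 CPM in WT and 3.78, 4.93 and 3.03 CPM in Dgcr8 KO. Mir27b had 1.92, 3.12 and 2.30 CPM in WT and 1.59, 1.71 and 1.33 CPM in Dgcr8 KO and was not called, at -0.58 (limma, SE 0.38 and adjusted p = 0.19). Both were called for the total to 4sU ratio, Mir27b at 3.61 (limma, SE 0.60 and adjusted p = 5.53e-05) and Mir24-1 at 3.49 (limma, SE 0.70 and adjusted p = 0.000539), the 2 largest fitted values among the 64. The host 2010111I01Rik rose in total RNA as well, with 27.5, 27.8 and 27.05 CPM in WT and 69.5, 67.2 and 61.6 CPM in Dgcr8 KO, by 1.27 (limma, SE 0.08 and adjusted p = 4.91e-15), and its nascent RNA was not called, at 0.10 (limma, SE 0.08 and adjusted p = 0.294).

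The miR-15/16 family also parted from hairpin to hairpin. Mir16-1 and Mir15a lie in an intron of the long non-coding gene Dleu2 (chr14:61631880-61632110, mm10, minus strand). Mir16-1 had total counts of 1, 0 and 2 in WT and 17, 25 and 18 in Dgcr8 KO, a ratio of scaled counts of 19.8 (95% exact counting interval 6.45 to 98.5) with limma adjusted p = 5.15e-07. Its nascent RNA rose by 1.42 (limma, SE 0.38 and adjusted p = 0.00211), with 1.60, 1.67 and 1.42 CPM in WT and 3.18, 3.80 and 6.44 CPM in Dgcr8 KO. Mir15a, upstream in the same intron, lay lower in nascent RNA, with 9.12, 8.12 and 7.96 CPM in WT and 3.78, 4.75 and 4.54 CPM in Dgcr8 KO and no overlap, at -0.94 (limma, SE 0.22 and adjusted p = 0.000549), under the limit of 1 but past it in DESeq2 (-1.006) and without Dgcr8 KO replicate 2 (-1.002). Its total RNA was 1.55, 1.46 and 1.39 CPM in WT and 2.92, 2.19 and 2.73 CPM in Dgcr8 KO, at 0.81 (limma, SE 0.31 and adjusted p = 0.0226). As a share of the reads of the pair, Mir16-1 held 15.7% ± 1.16 in WT 4sU and 49.6% ± 7.84 in Dgcr8 KO 4sU libraries (SD, n = 3). Both were called for the total to 4sU ratio, at 2.58 (limma, SE 0.70 and adjusted p = 0.00959) and 1.75 (limma, SE 0.38 and adjusted p = 0.00127). The call of Mir16-1 was lost without WT replicate 2 (adjusted p = 0.132). Dleu2 had log2 changes of 0.91 in total and -0.46 in nascent RNA, neither past the limit of 1.

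The second locus of the family, Mir15b and Mir16-2 in an intron of Smc4 (chr3:69009772-69009996, mm10, plus strand), had less nascent RNA in Dgcr8 KO. Both passed the filter on WT libraries alone and Mir16-1 on Dgcr8 KO libraries alone. The filter thus favoured opposite directions at these loci. Mir15b had 6.88, 9.16 and 9.38 CPM in WT and 3.18, 2.47 and 3.79 CPM in Dgcr8 KO and fell by 1.39 on the log2 scale (limma, SE 0.32 and adjusted p = 0.000462), the only clustered hairpin called lower. Mir16-2, which encodes the same mature strand as Mir16-1, had 3.20, 3.12 and 5.13 CPM in WT and 2.39, 1.52 and 1.71 CPM in Dgcr8 KO, at -0.99 (limma, SE 0.36 and adjusted p = 0.021). It missed the limit of 1 by little and passed it under several alternatives, among them edgeR (-1.03, adjusted p = 0.0136) and DESeq2 (-1.09, adjusted p = 0.0443). Total counts were 3, 10 and 0 in WT and 5, 5 and 3 in Dgcr8 KO for Mir15b and 3, 1 and 2 in WT and 1, 5 and 1 in Dgcr8 KO for Mir16-2, too few to rank the genotypes. The total to 4sU ratio of Mir15b was called at 2.29 (limma, SE 0.80 and adjusted p = 0.0481) but not in edgeR (adjusted p = 0.212), not with the 4sU and total library of one replicate as a block (log2 change 1.71, adjusted p = 0.094), and not without WT replicate 3, where its log2 change was 0.79 (adjusted p = 0.488), Dgcr8 KO replicate 1 (adjusted p = 0.115) or Dgcr8 KO replicate 2 (adjusted p = 0.168). Smc4 changed by -0.35 in nascent RNA (limma, SE 0.06 and adjusted p = 4.59e-06), under the limit.

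The miR-106b-25 cluster lies in an intron of Mcm7, a subunit of the replicative helicase (chr5:138165321-138165818, mm10, minus strand). Its hairpins differed by position. Only with Dgcr8 KO libraries did Mir106b meet the filter, which favoured its higher nascent values there. Mir106b, the first in the transcript, had 2.56, 3.75 and 3.01 CPM in WT and 9.55, 10.1 and 7.58 CPM in Dgcr8 KO and rose in nascent RNA by 1.55 (limma, SE 0.27 and adjusted p = 1.05e-05). Mir93 had 3.68, 4.79 and 4.96 CPM in WT and 9.55, 8.16 and 6.82 CPM in Dgcr8 KO with no overlap, at 0.87 (limma, SE 0.25 and adjusted p = 0.00356), under the limit. Mir25, the last, was lower without passing it, with 16.6, 20.6 and 17.2 CPM in WT and 14.1, 12.9 and 10.98 CPM in Dgcr8 KO and -0.50 (limma, SE 0.15 and adjusted p = 0.00634). Mir25 held 70.6% ± 2.21 of the reads of the cluster in WT 4sU and 42.4% ± 0.914 in Dgcr8 KO 4sU libraries, and Mir106b 12.01% ± 0.835 and 30.3% ± 1.83 (SD, n = 3). In total libraries the counts were 7, 1 and 4 in WT and 10, 9 and 8 in Dgcr8 KO for Mir93, called at 1.40 (limma, SE 0.54 and adjusted p = 0.0233). That call was lost in edgeR (adjusted p = 0.0515) and without WT replicate 2 (log2 change 0.70, adjusted p = 0.256). Mir25 had total counts of 15, 15 and 15 in WT and 21, 7 and 8 in Dgcr8 KO and Mir106b of 4, 2 and 1 in WT and 7, 2 and 3 in Dgcr8 KO, and neither was called.

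Of the let-7 family, 3 hairpins passed the filter and 2 of them rose. Mirlet7a-1 and Mirlet7f-1 lie within 1 kb of each other (chr13:48537829-48538272, mm10, minus strand, intergenic). Mirlet7a-1 had 6.56, 9.78 and 6.02 CPM in WT and 28.8, 22.2 and 23.9 CPM in Dgcr8 KO in nascent RNA, a log2 change of 1.78 (limma, SE 0.19 and adjusted p = 1.74e-09). Its total counts were 3, 13 and 6 in WT and 28, 16 and 25 in Dgcr8 KO, a log2 change of 1.70 (limma, SE 0.43 and adjusted p = 0.00101). Mirlet7f-1, downstream of it, had 6.56, 8.53 and 6.55 CPM in WT and 6.76, 6.07 and 4.36 CPM in Dgcr8 KO and was not called, at -0.33 (limma, SE 0.23 and adjusted p = 0.224). The 2 hairpins thus held nearly equal shares of reads in WT 4sU libraries, 50.4% ± 2.79 and 49.6% ± 2.79, and unequal ones in Dgcr8 KO 4sU libraries, 81.4% ± 3.04 and 18.6% ± 3.04 (SD, n = 3). Mirlet7g, in an intron of Wdr82, rose in nascent RNA by 1.44 (limma, SE 0.34 and adjusted p = 0.00058), with 1.76, 1.46 and 2.12 CPM in WT and 3.98, 4.37 and 7.01 CPM in Dgcr8 KO. It met the filter only with Dgcr8 KO libraries, which favoured this rise. Its total counts were 1, 0 and 1 in WT and 7, 5 and 5 in Dgcr8 KO, a ratio of scaled counts of 8.40 (95% exact counting interval 1.99 to 74.9) with limma adjusted p = 0.000684. RNA of the genes for the proteins that block let-7 processing changed in opposite directions, with Lin28a at 104, 91.5 and 111 CPM in WT and 0.112, 1.03 and 1.29 CPM in Dgcr8 KO and Lin28b at 14.8, 15.04 and 12.3 CPM in WT and 90.2, 93.7 and 92.3 CPM in Dgcr8 KO in total libraries, log2 changes of -7.43 (limma, SE 0.48 and adjusted p = 8.85e-15) and 2.72 (limma, SE 0.12 and adjusted p = 2.4e-19). Their part in the let-7 values was not tested.

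A pair of intergenic clusters with low WT levels also changed. Mir182 and Mir96 (chr6:30165918-30169551, mm10, minus strand), of the miR-183 cluster known from sensory cells, both rose. Each met the filter only with Dgcr8 KO libraries, so their higher nascent values were a condition of being listed. In nascent RNA Mir182 had 0.8, 1.46 and 1.42 CPM in WT and 3.58, 4.17 and 3.41 CPM in Dgcr8 KO, with 1.61 (limma, SE 0.39 and adjusted p = 0.000714). Mir96 had 0.8, 1.25 and 1.24 CPM in WT and 5.17, 4.55 and 3.79 CPM in Dgcr8 KO, with 1.99 (limma, SE 0.41 and adjusted p = 0.00014). Total counts summed to 2 in WT against 19 in Dgcr8 KO for Mir182, a ratio of scaled counts of 9.39 (95% exact counting interval 2.26 to 83.1) with limma adjusted p = 0.000374. For Mir96 they summed to 3 in WT against 30 in Dgcr8 KO, a ratio of 9.88 (95% exact counting interval 3.07 to 50.6) with limma adjusted p = 0.000101.

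Mir433, Mir127 and Mir432 (chr12:109591715-109595030, mm10, plus strand) belong to the imprinted Dlk1-Dio3 domain, whose microRNAs are expressed from the maternal copy. Mir433 had 0.16, 1.04 and 0.885 CPM in WT and 4.97, 4.75 and 4.36 CPM in Dgcr8 KO in nascent RNA, with 2.96 (limma, SE 0.50 and adjusted p = 8.25e-06). Its total counts were 0, 2 and 0 in WT and 12, 8 and 12 in Dgcr8 KO, a ratio of scaled counts of 15.8 (95% exact counting interval 4.03 to 136) with limma adjusted p = 5.75e-06. Mir127 rose in nascent RNA only, with 1.12, 0.832 and 1.24 CPM in WT and 4.57, 3.61 and 3.41 CPM in Dgcr8 KO, by 1.76 (limma, SE 0.40 and adjusted p = 0.000359). Its total counts of 2, 5 and 6 in WT and 5, 11 and 9 in Dgcr8 KO overlapped between genotypes. Mir432 had more nascent RNA in every WT than in any Dgcr8 KO library, with 5.28, 4.99 and 4.25 CPM in WT and 3.18, 3.42 and 1.89 CPM in Dgcr8 KO, but its change of -0.80 (limma, SE 0.31 and adjusted p = 0.0293) was under the limit. Mir433 and Mir127 passed the filter on Dgcr8 KO libraries alone and Mir432 on WT libraries alone, which favoured these opposite directions.

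Hairpins beside these clusters that missed the filter were also counted, as a description with no test, and the examples were picked with their values in view. Within 10 kb of a cluster and on its strand there were 12, of which Mirlet7d, in an exon of another gene, had no count. Of the 11 with counts, 7 had a higher summed CPM in Dgcr8 KO than in WT total libraries, and 8 in 4sU libraries. Mir23b, the third hairpin of the Mir27b cluster, summed to 2 counts in WT and 54 in Dgcr8 KO total libraries, and Mir431, beside Mir433, to 4 and 56. Mir106a summed to 2 and 20. Mir183, of the Mir182 cluster, summed to 5 and 31 in 4sU libraries. Mir665 went the other way, with 11 in WT and 3 in Dgcr8 KO 4sU libraries.

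Of the 5 host transcripts, 2 rose, 1 fell and 2 were not called in total RNA. Mir17hg (ENSMUSG00000089726.2, chr14:115042879-115046727, mm10, plus strand), the primary transcript of the oncogenic miR-17-92 cluster, had the highest CPM of the 64, not corrected for its length. Its total RNA was 61.97, 70.00 and 57.8 CPM in WT and 217, 191 and 188 CPM in Dgcr8 KO, a log2 change of 1.66 (limma, SE 0.11 and adjusted p = 9.48e-15). Its nascent RNA overlapped between genotypes, with 561, 709.6 and 504 CPM in WT and 519, 479 and 412 CPM in Dgcr8 KO, at -0.32 (limma, SE 0.08 and adjusted p = 0.00141). The total to 4sU ratio was called at 1.97 (limma, SE 0.13 and adjusted p = 2.93e-12). Mir22hg, whose hairpin is in its exon, gave the same order, with total RNA of 1.24, 3.27 and 3.35 CPM in WT and 6.29, 7.36 and 6.46 CPM in Dgcr8 KO and a log2 change of 1.38 (limma, SE 0.28 and adjusted p = 8.81e-05). Without WT replicate 1, the lowest of the WT libraries, the change was 0.998 (adjusted p = 0.0016) and so just under the limit. Nascent Mir22hg had 15.7, 20.2 and 15.9 CPM in WT and 18.7, 16.1 and 13.1 CPM in Dgcr8 KO, at -0.11 (limma, SE 0.16 and adjusted p = 0.595), and the ratio was called at 1.48 (limma, SE 0.33 and adjusted p = 0.0015).

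Mir9-3hg, the host of a microRNA of neural progenitors, fell in both kinds of RNA. It passed the filter on WT libraries alone, so its higher values in WT were favoured by the filter. It had 4.19, 3.52 and 2.43 CPM in WT and 1.12, 0.516 and 1.29 CPM in Dgcr8 KO in total RNA, a log2 change of -1.75 (limma, SE 0.39 and adjusted p = 0.000243). In nascent RNA it had 3.04, 3.54 and 5.49 CPM in WT and 1.79, 1.139 and 2.08 CPM in Dgcr8 KO, a log2 change of -1.21 (limma, SE 0.38 and adjusted p = 0.00814), which went under the limit without WT replicate 3 (-0.96) or Dgcr8 KO replicate 2 (-0.97, adjusted p = 0.0515). Mir124a-1hg, the host of a neuronal microRNA, was higher in every Dgcr8 KO library without passing the limit. It had 25.1, 23.3 and 27.6 CPM in WT and 39.8, 42.5 and 36.9 CPM in Dgcr8 KO in nascent RNA, at 0.64 (limma, SE 0.11 and adjusted p = 6.66e-06). In total RNA it had 2.80, 2.67 and 3.58 CPM in WT and 4.04, 6.20 and 4.45 CPM in Dgcr8 KO, at 0.65 (limma, SE 0.25 and adjusted p = 0.0213). Mir142hg, the host of a blood-cell microRNA, was low, with 4.64, 2.71 and 4.96 CPM in WT and 4.97, 3.80 and 1.89 CPM in Dgcr8 KO in nascent RNA, where the genotypes overlapped. Its total counts of 5, 3 and 4 in WT and 3, 2 and 2 in Dgcr8 KO were not called.

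Most of the 26 single hairpins were not called in any contrast, and those that were went in both directions. Besides Mirlet7g, 3 rose in nascent RNA. All 4 met the filter only with Dgcr8 KO libraries, so their higher nascent values were a condition of being listed. Mir130a had 0.64, 1.25 and 1.59 CPM in WT and 9.55, 5.88 and 6.44 CPM in Dgcr8 KO, a log2 change of 2.64 (limma, SE 0.38 and adjusted p = 6.62e-07). Mir6392, in an intron of Pnpla3, had 1.76, 1.67 and 1.42 CPM in WT and 7.16, 5.88 and 3.60 CPM in Dgcr8 KO, with 1.67 (limma, SE 0.38 and adjusted p = 0.000364). Its host rose alike, by 1.22 (limma, SE 0.09 and adjusted p = 9.96e-13). Mir7655, in an intron of Mllt10, had 0.96, 1.46 and 3.36 CPM in WT and 4.57, 3.80 and 5.49 CPM in Dgcr8 KO, with 1.41 (limma, SE 0.40 and adjusted p = 0.00303), which went to 0.97 (adjusted p = 0.0449) without WT replicate 1. Total counts of these 3 stayed below 5 in every library: 1, 1 and 1 in WT and 1, 3 and 2 in Dgcr8 KO for Mir130a, 0, 2 and 0 in WT and 1, 3 and 4 in Dgcr8 KO for Mir6392 and 0, 2 and 3 in WT and 1, 4 and 4 in Dgcr8 KO for Mir7655. The ratio of scaled counts was 1.98 (95% exact counting interval 0.422 to 12.2) for Mir130a and 3.95 (95% exact counting interval 0.789 to 38.2) for Mir6392, so neither interval excluded 1.

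Mir296 was the hairpin whose nascent RNA fell most. This imprinted hairpin had 4.96, 5.62 and 6.02 CPM in WT and 0.796, 1.33 and 1.33 CPM in Dgcr8 KO and fell by 2.19 on the log2 scale (limma, SE 0.38 and adjusted p = 1.3e-05). Its total RNA overlapped, with 2.17, 1.33 and 0.809 CPM in WT and 2.02, 2.06 and 1.44 CPM in Dgcr8 KO, and the total to 4sU ratio was called at 2.69 (limma, SE 0.53 and adjusted p = 0.000443). Mir1967 fell in nascent RNA as well, with 4.64, 4.79 and 4.42 CPM in WT and 2.39, 1.139 and 2.46 CPM in Dgcr8 KO, by 1.25 on the log2 scale (limma, SE 0.37 and adjusted p = 0.00491). Without Dgcr8 KO replicate 2 it changed by -0.90 (adjusted p = 0.0538). Both Mir296 and Mir1967 passed the filter on WT libraries alone, so their higher nascent values in WT were favoured by it. The ratio call of Mir296 rests on the same nascent values.

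The total RNA of 2 hairpins in introns of genes for abundant proteins fell in Dgcr8 KO. Mir6935, in Actg1 (cytoplasmic actin), had total counts of 8, 20 and 13 in WT and 7, 4 and 2 in Dgcr8 KO, a log2 change of -1.61 (limma, SE 0.52 and adjusted p = 0.00818). Actg1 has near-identical copies that unique mapping can leave under-counted. Mir7079, in Rpl13 (a ribosomal protein), had nascent RNA of 11.7, 13.9 and 16.1 CPM in WT and 8.35, 6.45 and 5.49 CPM in Dgcr8 KO, with -1.03 (limma, SE 0.21 and adjusted p = 7.96e-05). Its total counts were 4, 13 and 14 in WT and 2, 5 and 3 in Dgcr8 KO, with -1.51 (limma, SE 0.55 and adjusted p = 0.0177). Rpl13 itself was lower without passing the limit, at -0.75 in total and -0.86 in nascent RNA. For Mir7079 the nascent change missed the limit without WT replicate 3 (-0.92) or Dgcr8 KO replicate 3 (-0.89), and the total call was lost without WT replicate 2 (adjusted p = 0.0688), WT replicate 3 (adjusted p = 0.0652) or Dgcr8 KO replicate 1 (adjusted p = 0.111).

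The most abundant single hairpins were not called. Mir5117, in Gas5 and of the gene type snoRNA, had 65.9, 90.5 and 51.1 CPM in WT and 46.3, 60.2 and 35.2 CPM in Dgcr8 KO in nascent RNA. Mir1894, in Ppp1r10, had 41.6, 44.3 and 40.7 CPM in WT and 49.7, 49.7 and 32.01 CPM in Dgcr8 KO. Mir703 and Mir3113 were the 2 of the 64 with a higher mean CPM in total than in 4sU libraries in both genotypes, which Mir27b and Mir296 had in Dgcr8 KO only, with Mir703 at 12.9 ± 1.66 CPM in WT total and 3.65 ± 0.715 CPM in WT 4sU libraries (SD, n = 3). Mir5117, Mir1894, Mir703 and Mir3113 were not called in any contrast. Mir320, Mir484, Mir702 and Mir877, generally named as made without DGCR8, did not pass the filter. They had 6, 4, 0 and 0 counts over all 12 libraries, and Mir702 lies in an exon of Plod3. That list was not checked against a database, and whether any of the 64 is made without DGCR8 was not examined.

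Because 27 hairpins lie within a tested gene on the same strand, each could be set against its host in the same library, so that a change of the whole transcript cancels. The value is log2(hairpin CPM + 0.5) minus log2(host CPM + 0.5), and with 3 libraries against 3 an exact two-sided permutation test cannot give p under 0.1. All pairs that did not overlap reached that p, and the adjusted p over the 54 comparisons was 0.3 at the smallest, so no pair could pass a threshold of 0.05. In 4sU libraries 7 of the 27 were higher and 4 lower with no overlap, where 7.13% and 16.8% of 897 nested gene pairs of any kind were. Most of the 7 met the filter only with Dgcr8 KO libraries, so their share is not independent of the filter. In total libraries 5 were higher and 2 lower, where 15.9% and 17.3% of all nested pairs were.

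Each hairpin named next lay below its host in CPM in every library, and what was compared is the ratio in Dgcr8 KO with that in WT. The 7 with a higher ratio to their host in Dgcr8 KO 4sU libraries were Mir106b, Mirlet7g, Mir16-1, Mir93, Mir24-1, Mir7655 and Mir1949. Of these, Mir106b, Mirlet7g, Mir16-1, Mir24-1 and Mir7655 met the filter only with Dgcr8 KO libraries. Their higher ratios are therefore not independent of the filter. Mir93 passed within each genotype, and Mir1949, of the gene type snoRNA, differed by 0.22 only. Mir106b relative to Mcm7 gave -7.19, -6.82 and -7.000 in WT and -4.97, -4.91 and -5.17 in Dgcr8 KO, a difference of 1.98 on the log2 scale. Mirlet7g relative to Wdr82 gave -7.37, -7.51 and -7.02 in WT and -5.63, -5.57 and -4.97 in Dgcr8 KO, a difference of 1.91. Nascent RNA of both hosts was lower in Dgcr8 KO, at -0.57 for Mcm7 and -0.63 for Wdr82 on the log2 scale, without passing the limit, opposite in sign to the hairpins. For Mir16-1 in Dleu2 the difference was 1.68, for Mir93 in Mcm7 1.37 and for Mir24-1 in 2010111I01Rik 1.27. Mir15b, Mir27b, Mir15a and Mir6935 were the 4 with a lower ratio, a share of 14.8% and so near the background, with differences of -0.96, -0.62, -0.43 and -0.33. In total libraries the 5 with a higher ratio, Mir24-1, Mir16-1, Mirlet7g, Mir27b and Mir93, were 18.5% of the pairs, near the 15.9% of all nested pairs, with differences of 1.56, 1.30, 0.98, 0.80 and 0.74, and the 2 with a lower ratio were Mir423 and Mir1938, at -0.91 and -0.85. These values in total libraries depend on the pseudocount: for Mir24-1 the difference was 3.34 with 0.1 CPM and 0.82 with 1 CPM, for Mir16-1 2.71 and 0.67, for Mirlet7g 2.15 and 0.59, for Mir27b 1.58 and 0.32 and for Mir93 1.25 and 0.50. For Mir423 it was -1.68 and -0.68 and for Mir1938 -1.57 and -0.66, with the signs kept. The ratio of Mir27b to its host was thus lower in nascent and higher in total RNA of Dgcr8 KO. Hairpins of one host share that host's counts and are not independent.

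**Figure D5:**
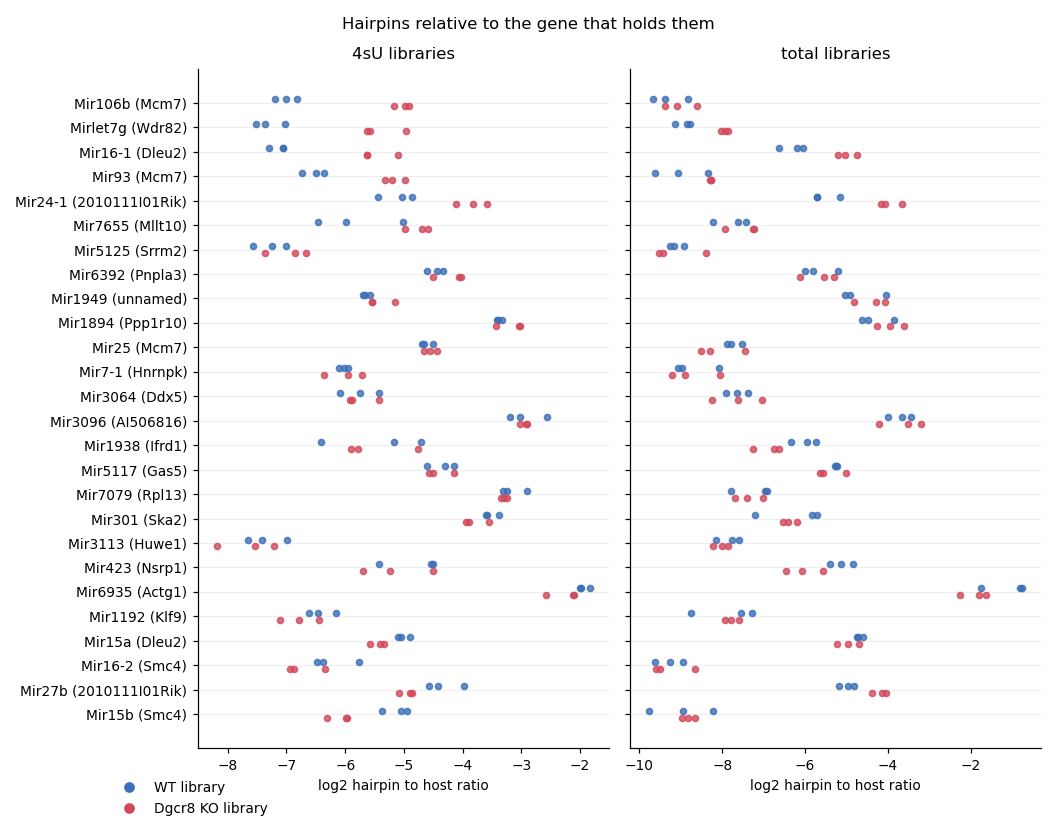
Log2 ratio of each hairpin to the gene that holds it (host in brackets), a point for each library, 4sU on the left and total on the right, ordered by the difference in 4sU libraries, with 1 of the 27 pairs not drawn. The 5 uppermost pairs, from Mir24-1 to Mir106b, are clear of each other between genotypes in 4sU libraries, while Mir25, in the same intron as Mir93 and Mir106b, overlaps.

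Within either genotype the 64 transcripts had far less signal in total than in 4sU libraries. Their median log2 ratio of total to 4sU signal lay -2.26, -2.38 and -2.40 relative to the median of all tested genes in the 3 WT replicates, and -2.25, -2.15 and -1.90 in the 3 Dgcr8 KO replicates, which is a description that the filter, met mostly on 4sU libraries, favours. In WT 62 of the 64 lay below the median of all genes, and in Dgcr8 KO 60. The 5 host transcripts lay at -2.73 ± 0.268 in WT and -1.32 ± 0.197 in Dgcr8 KO (SD, n = 3), and the single hairpins at -2.23 ± 0.0646 and -2.41 ± 0.0621. By the interaction test 17 of the 64 had a higher ratio in Dgcr8 KO and none a lower one, where 0.791% and 0.969% of all tested genes did. Of the 17, 7 are hairpins of the miR-290 cluster, which are not independent of each other. Of the 64, 23 had an unadjusted p under 0.05 for this interaction, as did 3952 of all 14033 tested genes. EdgeR gave 16 calls, all higher, and DESeq2 gave 9 among the 19 for which it gave an adjusted p.

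Of the 13 genes of the processing machinery listed (Drosha, Dgcr8, Ddx5, Ddx17, Srsf3, Xpo5, Dicer1, Tarbp2, Prkra, Ago1, Ago2, Ago3 and Ago4), 1 rose and 1 fell in total RNA and none was called in nascent RNA. The 1 that fell was Dgcr8. Ago1, an Argonaute protein, rose, with 126, 124 and 149.8 CPM in WT and 302, 314 and 328 CPM in Dgcr8 KO, by 1.23 (limma, SE 0.06 and adjusted p = 1.11e-17). Drosha, the partner of DGCR8, had 169.9, 171 and 171 CPM in WT and 209, 205 and 206 CPM in Dgcr8 KO in total RNA and Dicer1 had 179, 166 and 175 CPM in WT and 196, 194 and 197 CPM in Dgcr8 KO, and neither passed the limit. Counts of Dgcr8 remained in every library labelled Dgcr8 KO. Of 8 fibroblast or feeder genes 1 was tested, Twist1, which was called higher in nascent RNA, with 1.12, 3.12 and 3.54 CPM in WT and 9.55, 5.31 and 6.63 CPM in Dgcr8 KO, and was not called in total RNA. The 8 summed to 3.04 to 6.87 CPM in WT 4sU and 7.39 to 11.5 CPM in Dgcr8 KO 4sU libraries, to 4.85 to 6.19 CPM in WT total and 3.71 to 5.94 CPM in Dgcr8 KO total libraries, and 2 of the 8 were at 0 in all of them. Of the germ layer genes 4 of 9 were tested, with none called in total or nascent RNA. Of 4 genes of the primed epiblast 3 were tested, and 1 fell in total RNA while in nascent RNA 1 rose and 1 fell. Their part in the values above was not tested.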

How the data were processed

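RNA was measured in 12 libraries from WT and Dgcr8 KO ESCs. Per the file headers and the submitters' processing notes, the authors cut adapters with cutadapt 1.14, aligned them with STAR 2.5.3a to mm10, and deposited raw counts per gene made with featureCounts 1.5.3 from uniquely mapped reads on the reverse strand (GENCODE M14). Which library kit served which library is not given in the sources used here.

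Symbols and gene types came from GENCODE M21 through the stable identifiers. Gene positions and exons, and with them hosts and context, came with the deposited counts (GENCODE M14). Genes with at least 3 CPM in at least 3 libraries were fitted together with limma 3.58.1 (voom) in R 4.3.3, with TMM factors from edgeR 4.0.16, following the tool named in the methods of the study. Contrasts were KO minus WT in total RNA, in nascent RNA, and their difference (the total to 4sU ratio). Hairpin to host ratios were tested by exact permutation (scipy 1.17.1). Changes with 1 to 3 reads over a group, where singled out, are also given as ratios with exact 95% intervals, which cover counting error only. Alternatives included edgeR, DESeq2 1.42.0, other scalings and filters, replicate blocks and leaving out each replicate. On simulated data limma recovered 93.9% of 196 changed genes in total RNA with 9 false calls. For the total to 4sU ratio it recovered 86.7%, also with 9 false calls. The changed genes were drawn from all tested genes with a fixed spread, so these rates do not describe hairpins with few reads. Every transcript in a cluster, every hg transcript and every called one is named with its values, except 1 single hairpin that limma called lower in total RNA and edgeR and DESeq2 did not, which is counted but not reported here. The transcripts, lists and tests were chosen with earlier results of these data known. Total counts are given with the results.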

Additional observations from a re-analysis of the deposited data

Results flagged for a closer look

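The genotype effect differed between library types for 17 transcripts, by the interaction term of limma (adjusted p under 0.05 and a difference over 1 on the log2 scale). In each of them the effect in total RNA exceeded that in nascent RNA. In the miR-290 cluster the difference was 1.485 for Mir290a, 1.197 for Mir291a, 1.213 for Mir292, 1.571 for Mir291b, 1.563 for Mir293, 1.223 for Mir294 and 1.416 for Mir295. In the cluster of Mir363 it was 2.046 for Mir363 and 3.031 for Mir18b. Among hairpins in introns it was 3.605 for Mir27b, 3.487 for Mir24-1, 2.575 for Mir16-1, 1.751 for Mir15a and 2.286 for Mir15b. For the intergenic Mir296 it was 2.692, and for the host transcripts it was 1.975 for Mir17hg and 1.48 for Mir22hg. With 3 libraries in a group, single libraries were not screened for outliers.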

How the results depend on the processing

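Of 1616 values of 112 named results under the alternatives, 1540 kept their direction and their side of the threshold, 44 lost a call, 32 gained one and none reversed. The number of the 64 transcripts called ran from 26 to 29 in total RNA, from 28 to 31 in nascent RNA and from 14 to 17 for the total to 4sU ratio when each replicate, with its 4sU and total library, was left out in turn. When 3 CPM was asked of all 12 libraries, 8 transcripts could be tested, of which 7, 3 and 7 were called in total RNA, in nascent RNA and for the ratio, since fewer were tested. DESeq2 called 9 for the ratio in place of 17, and it gave no adjusted p for 45 of the 64. Without the limit on the log2 change, 31 and 41 were called in total and nascent RNA. Of all 14033 tested genes, 8971 and 7898 were then called. Apart from those lost without a single replicate, the calls lost among the transcripts named were those of Mir20b in nascent RNA (edgeR, DESeq2, RLE and upper-quartile scaling, replicate block), of Mir93 in total RNA (edgeR and DESeq2), of Mir367 in total RNA (DESeq2, and a filter of 1 count in 1 library), of Mir363 for the ratio (that filter) and of Mir15b for the ratio (that filter, edgeR and the block of a replicate's 2 libraries). The cause was not tested.

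The 4sU and total libraries of one number were taken to come from the same RNA, which the labels do not state. With that as a block the ratio again gave 17 calls. Replicate numbers did not pair WT with Dgcr8 KO: deviations of same-numbered libraries correlated at 0.0061, -0.0029 and 0.015 in total and at -0.083, 0.078 and -0.013 in 4sU libraries. A replicate block over both genotypes gave 30 calls in total RNA, 28 in nascent RNA and 21 for the ratio, of which 19 were higher and 2 lower. Taken in same-numbered pairs, 8 hairpins were higher relative to their host in all 3 Dgcr8 KO total libraries, a rule easier to meet than no overlap, which 5 met, and 8 in 4sU libraries against 7. Leaving out each replicate in turn left 5 to 7 hairpins higher without overlap in total and 7 to 10 in 4sU libraries. With fewer libraries, no overlap is also easier to meet. The shares of all nested pairs under these rules are not given, so these counts cannot be compared with a background.

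Many hairpins had 0 to 3 reads in a WT total library, although these libraries were sequenced more deeply than the 4sU libraries. Ratios of these have wide counting intervals, and an order among such hairpins was not detectable at this depth.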
